A study of Mus musculus with 9 samples.

Results

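The genes described here encode 7 enzymes that inflammatory macrophages use to make nitric oxide, itaconate, prostaglandin E2 and 25-hydroxycholesterol, namely Nos2, Irg1, Arg2, Ptgs2, Ptges, Ch25h and Gch1. They were chosen by name for what their products do, with earlier results of these data known, and all 7 are among the 24341 genes of the table. RNA from whole liver was sequenced in 9 wild-type (WT) C57BL/6 mice, 3 given an agonist antibody to CD40 (mice 2, 5 and 9) and 6 control mice given PBS (mice 3, 4, 7, 8, 11 and 12), 48 hours after treatment. The ages of the mice are not given in the labels, the labels name no other allele or agent, and each library was 1 mouse. The study left out some anti-CD40 mice that lacked the usual systemic response, and whether this touched these mice is not stated. Levels are FPKM (fragments scaled to transcript length and to the fragments mapped in the library) with a floor of 0.01, below which the table gives no value. Because each library read transcripts from their 3′ ends, the FPKM of 1 gene was compared between mice and not with that of another gene. Log2 ratios of 2 genes and sums over marker lists were likewise compared between mice only. Such sums give the most weight to the genes with the highest FPKM.

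CD40 is a receptor on antigen-presenting cells, and its activation, directly or through cytokines such as IFN-γ and TNF, turns on a set of metabolic enzymes in macrophages. Nos2 makes nitric oxide from arginine with tetrahydrobiopterin as a cofactor, and Gch1 is the rate-limiting enzyme for that cofactor. Arg2, the mitochondrial arginase, competes for arginine. Irg1, also called Acod1, makes itaconate from the citrate cycle intermediate cis-aconitate, Ptgs2 (cyclooxygenase 2) and Ptges make prostaglandin E2 in sequence, and Ch25h adds a hydroxyl group to cholesterol to give an oxysterol that limits cholesterol synthesis and steers immune cells. Hepatocytes, the most abundant cells of the liver, run the arginase of the urea cycle (Arg1) and have their own tetrahydrobiopterin pathway, which serves phenylalanine breakdown.

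Of the 7 enzyme genes, 6 had anti-CD40 values that all lay above the control values, and Gch1 was lower in every anti-CD40 mouse. On the log2(FPKM + 0.1) scale Irg1 had the largest difference, from a mean of 0.137 FPKM to 15.6 FPKM, followed by Ch25h and Ptges. Nos2 and Ptgs2 were at or next to the floor in the control mice and stayed low after anti-CD40, so they rest on few reads. In the test across all genes (limma on log2(FPKM + 0.1) over 13807 genes that averaged 0.1 FPKM or more, Benjamini-Hochberg adjusted p under 0.05), 5 members were tested, 4 were called higher and 1 lower. Over all genes tested, 23.5% were called higher and 21.7% lower, and groups that did not overlap were seen for 22.7% in the higher and 19.6% in the lower direction. Among genes above the floor in some mouse but under the filter, where Nos2 and Ptgs2 fell, 6.82% had anti-CD40 mice all above the control mice. Arg2 and Ptges passed the filter only through their anti-CD40 level, so the 4 calls are a description of these genes and no measure of the group. The exact 2-sided permutation test over the 84 ways to choose 3 of 9 mice gave p = 0.0238 for each of the 7 genes, the smallest this design allows.

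**Figure D1:**
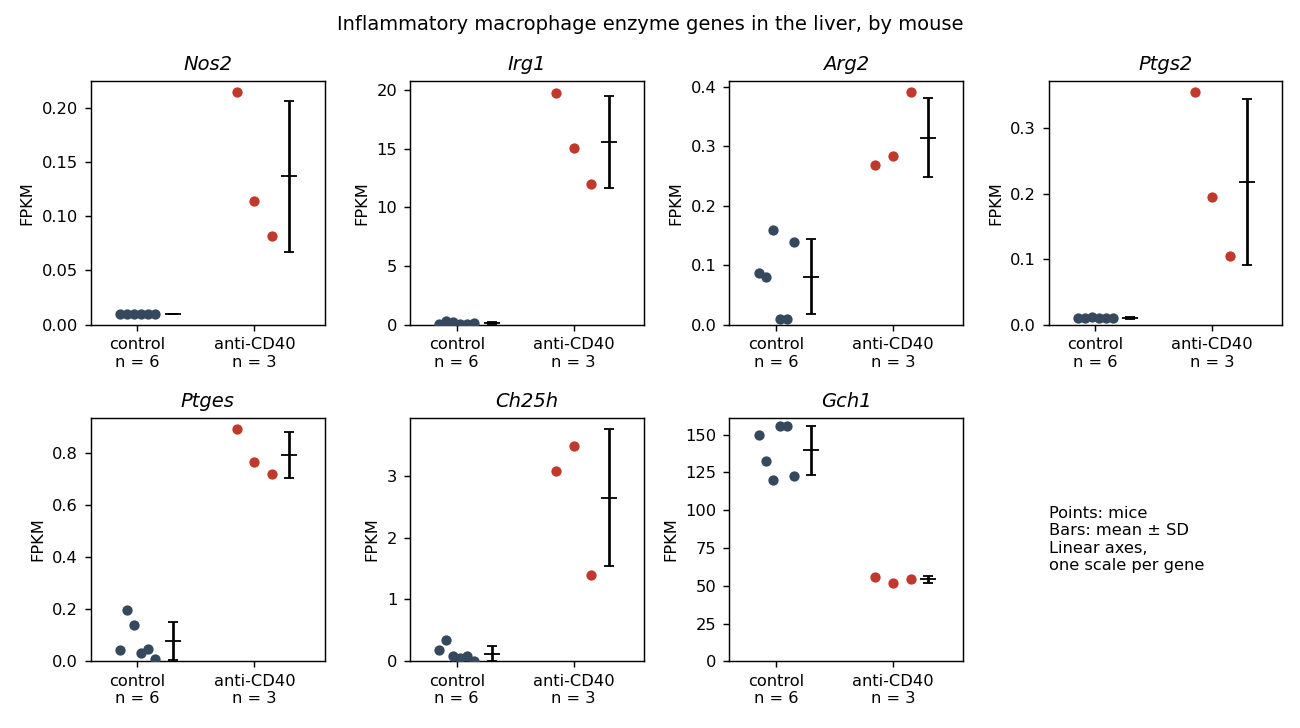
FPKM of the 7 enzyme genes (linear vertical axis, a scale for each gene) in 6 control mice (dark points) and 3 anti-CD40 mice (red points), with the mean ± SD as a bar beside each group. The groups do not overlap for any of the 7 genes, and Gch1 is the gene where the anti-CD40 mice are the lower group.

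The window of 250 bases before the transcription start is shown for the 3 members that bracket the response, the 2 with the largest rises on that scale (Irg1 and Ch25h) and the 1 that fell (Gch1). RefSeq sequences of build GRCm38.p6, to which mm10 corresponds, were matched for 5 of the 7 members. Irg1 lies on the plus strand of chromosome 14 with its window at chr14:103046762-103047011, Ch25h on the minus strand with its window at chr19:34475149-34475398, and Gch1 on the minus strand with its window at chr14:47189414-47189663. Capitals mark the letters of a TATA box (TATAAA), those of a cAMP response element (CRE, TGACGTCA) or a match to the NF-κB consensus, found on either strand.
Irg1: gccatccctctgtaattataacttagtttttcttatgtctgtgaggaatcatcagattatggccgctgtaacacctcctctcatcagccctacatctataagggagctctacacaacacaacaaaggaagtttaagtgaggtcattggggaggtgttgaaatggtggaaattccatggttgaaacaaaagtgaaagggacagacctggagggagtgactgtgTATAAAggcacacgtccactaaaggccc
Ch25h: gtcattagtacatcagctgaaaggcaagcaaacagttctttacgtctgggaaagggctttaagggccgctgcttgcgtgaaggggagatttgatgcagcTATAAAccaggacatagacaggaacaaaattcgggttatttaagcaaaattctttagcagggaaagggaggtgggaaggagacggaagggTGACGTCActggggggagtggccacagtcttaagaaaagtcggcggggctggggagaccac
Gch1: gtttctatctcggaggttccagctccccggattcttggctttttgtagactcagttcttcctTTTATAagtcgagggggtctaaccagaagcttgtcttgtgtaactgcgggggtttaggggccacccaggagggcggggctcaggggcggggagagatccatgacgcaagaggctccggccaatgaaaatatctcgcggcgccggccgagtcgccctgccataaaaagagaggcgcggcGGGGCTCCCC
The TATA letters of Irg1 lay at -28 to -23 from the start. Those of Ch25h lay further away at -151 to -146, with the CRE letters at -61 to -54. Gch1 had the NF-κB match at the last bases before its start (-10 to -1) and the TATA letters on the opposite strand at -188 to -183. Whether any of these matches acts as a promoter element was not tested. Neither the letters TTCNNNGAA of the IFN-γ activated site (GAS) nor the interferon-stimulated response element (ISRE, by its name) were in these 3 windows or in those of Ptgs2 and Ptges, and no other member had the NF-κB consensus. Of 32851 windows in the genome, 12.4% held the TATA letters, 1.55% the CRE, 7.25% the NF-κB consensus, 7.02% the GAS letters and 2.98% the ISRE letters. The TATA and CRE letters were chosen after the windows had been read, and no match overlapped another.

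Nos2, the inducible nitric oxide synthase (chr11:78920859-78960124), was read in the anti-CD40 mice only. It was 0.214 FPKM in mouse 2, 0.114 in mouse 5 and 0.0816 in mouse 9, and it was at the floor in all 6 control mice. The steps between low values show how many reads stand behind a value, as the smallest whole numbers that fit, and Nos2 rested on 6, 3 and 2 reads against 0 in the control mice. With 3 reads over the control group as the limit that 0 reads allow, and with the relative depth of the mice taken into account, the Nos2 level was at least 6.72-fold higher after anti-CD40. This bound takes the 11 anti-CD40 reads as they are and allows for counting error in the control reads only. Its mean over the 9 mice was below the filter. With no filter, limma gave an adjusted p of 0.0014, in a gene whose 6 control values are the same number and have no spread.

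Arg2 (chr12:79130788-79172458 in the table, a position given for Vti1b as well) rose. The anti-CD40 mice had 0.269, 0.284 and 0.390 FPKM, and the control mice had 0.0869, 0.0802, 0.160, 0.01, 0.01 and 0.138 FPKM, of which 2 are the floor. The highest control mouse was below the lowest anti-CD40 mouse. The log2 fold change was 1.26 (SE 0.32, adjusted p = 0.00914 by limma), and with quantile normalization it was 0.94 (adjusted p = 0.0485). The 3′ ends of Arg2 and Vti1b, a membrane fusion protein gene on the opposite strand, overlap by 285 bases on chromosome 12 (79156017 to 79156301), in the part of the transcript that 3′ libraries read. Vti1b was lower after anti-CD40, with 55.1 ± 4.40 FPKM (SD, n = 3) against 72.5 ± 6.20 (SD, n = 6) and a log2 fold change of -0.39 (adjusted p = 0.013 by limma). Whole reads could not be recovered for Arg2, so how its reads were told apart from those of Vti1b was not tested.

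Arg1, the cytosolic arginase, was 1056, 1054 and 1324 FPKM after anti-CD40 and had a median of 1324 FPKM in the control mice, from 937 to 1742. Its log2 fold change of -0.20 did not pass the test (adjusted p = 0.407 by limma) and had the opposite sign with quantile normalization (0.28) and with the Saa genes left out (0.17). The log2 ratio of Arg2 to Arg1 was higher by 1.46 after anti-CD40 and that of Nos2 to Arg1 by 1.27, each with p = 0.0238 by the exact permutation test and 0.0333 adjusted over the 7 pairs of enzymes compared. Arg1 changed little, so both ratios mostly repeat the rises of Arg2 (1.26) and Nos2 (1.07) alone and add no separate support. The adjusted value also counts Nos2 to Gch1 and Ptgs2 to Ptgs1, whose p-values were fixed by the separate genes. The log2 ratio of Nos2 to Arg2 differed by -0.20 (exact permutation p = 0.643), and of its anti-CD40 values of -0.23, -0.84 and -1.43 the last lay below the control range of -1.24 to 0 and the other two within it. These ratios were formed from log2(FPKM + 0.1), so those with a gene at the floor depend on the added 0.1. The ranks of the 2 genes across the anti-CD40 mice were opposite, since mouse 2 had the most Nos2 and the least Arg2 and mouse 9 the reverse.

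**Figure D2:**
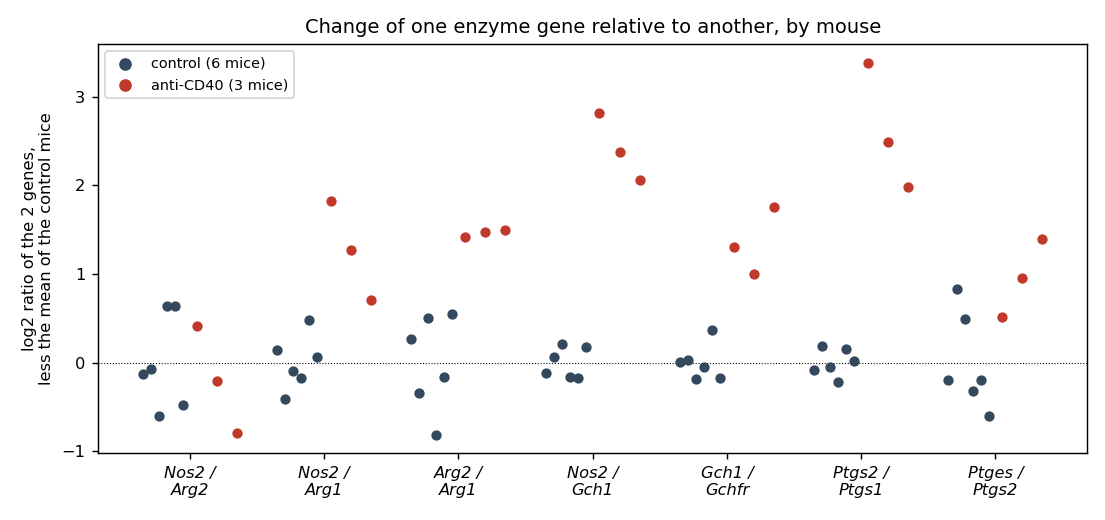
Log2 ratio of 2 enzyme genes in each mouse, from log2(FPKM + 0.1), less the mean of the 6 control mice (vertical axis, log2 units), for 7 pairs (horizontal axis). The anti-CD40 mice (red) lie above the control mice (dark) in 5 pairs, whereas they overlap with them for Nos2 to Arg2 and for Ptges to Ptgs2. For Nos2 to Gch1 and Ptgs2 to Ptgs1 the separation follows from the separate genes. For Nos2 to Arg1 and Arg2 to Arg1 it mostly repeats the rise of Nos2 and of Arg2.

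Among 19 other genes of arginine and nitric oxide metabolism, 17 were tested, 4 were called higher and 6 lower, and the median log2 fold change was -0.20 beside 0.01 over all genes tested. The arginine transporter genes were the largest rises. Slc7a1, the cationic amino acid transporter CAT-1, had 0.241 ± 0.0777 FPKM (SD, n = 6) in the control mice and 1.04 ± 0.0359 (SD, n = 3) after anti-CD40, and its log2 fold change was 1.77 (adjusted p = 6.27e-05 by limma). Slc7a7, which exports arginine and whose position in the table is also that of Oxa1l, had 1.93 (adjusted p = 3.02e-04). Ddah2, which clears a methylated arginine that inhibits nitric oxide synthases, had 0.74. Its paralog Ddah1 went the other way and was called lower, with -1.37 (20.25 against 54.1 FPKM, adjusted p = 0.0005 by limma). The spermine synthase gene Sms had 0.52 at the edge of the test (adjusted p = 0.0478 by limma). The largest falls were of agmatinase (Agmat, -2.23), ornithine aminotransferase (Oat, -1.51) and the urea cycle enzyme Ass1 (-1.49). The endothelial synthase Nos3 had a log2 fold change of 0.18 and was not called (adjusted p = 0.589 by limma), and Nos1 was under the filter.

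Gch1 (chr14:47153895-47189402), GTP cyclohydrolase 1, fell. The anti-CD40 mice had 56.1, 51.9 and 54.6 FPKM and the control mice 150, 132, 120, 156, 156 and 123 FPKM. The group mean of 54.2 ± 2.12 (SD, n = 3) was 38.9% of the control mean of 140 ± 16.4 (SD, n = 6). The log2 fold change was -1.35 (SE 0.12, adjusted p = 1.08e-05 by limma), and it was -0.99 when the Saa genes, which took 25.4% to 25.9% of the summed FPKM after anti-CD40 and at most 0.380% in the control mice, were left out of the scaling. That rescaling moved the median over all genes tested from 0.01 to 0.35 on the log2 scale.

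Most other genes of the pathway were called lower as well. Of 6 other tetrahydrobiopterin genes, all tested, 5 were called lower and 0 higher (limma), with a median log2 fold change of -1.37. Gchfr, which encodes the feedback regulator protein that binds and inhibits Gch1, had 39.6, 45.3 and 28.2 FPKM after anti-CD40 and a median of 240.3 FPKM in the control mice, from 211 to 281. Its log2 fold change of -2.71 (SE 0.15, adjusted p = 9.05e-07 by limma) was a larger fall than that of Gch1, and the log2 ratio of Gch1 to Gchfr was higher by 1.36 after anti-CD40 (exact permutation p = 0.0238, 0.0333 adjusted over the 7 pairs). The ratio was above that of every control mouse in each anti-CD40 mouse, with 0.50, 0.20 and 0.95 against -0.98 to -0.44. The recycling enzymes Qdpr and Pcbd1 had log2 fold changes of -1.98 and -1.54. Sepiapterin reductase (Spr), the last enzyme of the synthesis, had -1.03, and Pcbd2 had -1.19. Pts, the second enzyme of the synthesis, was not called (-0.74, adjusted p = 0.0892 by limma), and 2 control mice (8 and 12, with 15.8 and 15.4 FPKM) were within its anti-CD40 range of 13.6 to 18.4. The log2 ratio of Nos2 to Gch1 was higher by 2.42 (exact permutation p = 0.0238, adjusted 0.0333). Nos2 rose and Gch1 fell with no overlap of the groups, so that p-value was fixed by the separate genes and adds no support. Whether both genes were expressed in the same cells was not tested.

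**Figure D3:**
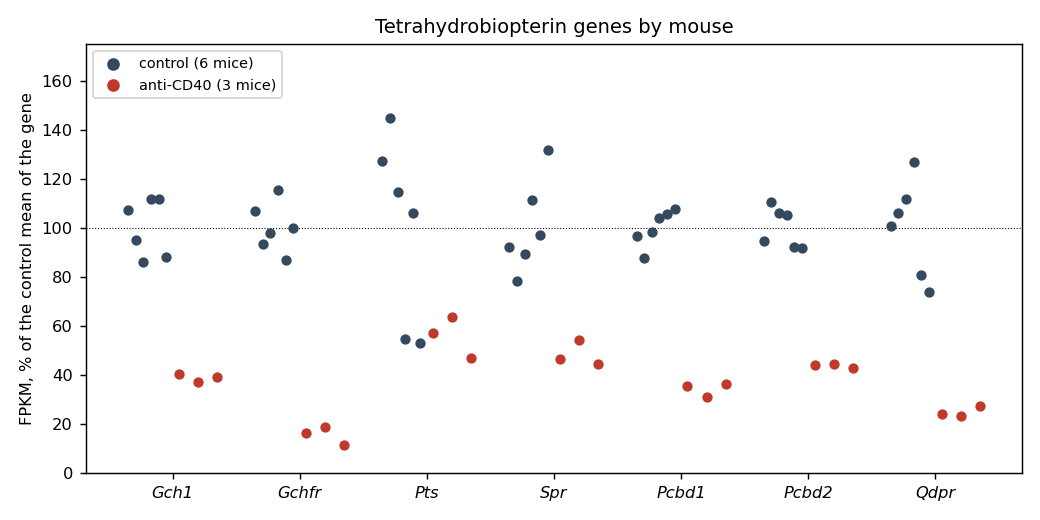
FPKM of Gch1 and the 6 other tetrahydrobiopterin genes in each mouse as a percentage of the control mean of that gene (vertical axis, linear from 0), in 6 control mice (dark) and 3 anti-CD40 mice (red). Gch1 lies near 38.9% and Gchfr near 15.5%, whereas the groups overlap for Pts.

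Irg1 (chr14:103047012-103056573) rose more on the log2(FPKM + 0.1) scale than any other member. The anti-CD40 mice had 19.8, 15.0 and 12.0 FPKM, from about 1044, 747 and 554 reads, and the control mice had 0.0659, 0.305, 0.243, 0.0246, 0.0666 and 0.116 FPKM, from 39 reads in all. The read steps were checked on low genes only, so the read numbers of the anti-CD40 mice are approximate. The lowest anti-CD40 mouse was far above the highest control mouse, mouse 4. The means were 15.6 ± 3.92 FPKM (SD, n = 3) and 0.137 ± 0.112 FPKM (SD, n = 6), a ratio of 114, and the log2 fold change on the log2(FPKM + 0.1) scale was 6.15 (SE 0.37, adjusted p = 1.19e-06 by limma). That scale understates changes of genes with low control levels, and Irg1 had 7.09 with 0.01 added and 3.85 with 1 added.

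Most genes around the itaconate step were called lower. Of 18 genes of the neighbouring citrate cycle and of itaconate breakdown, all tested, 14 were called lower and 0 higher (limma), with a median log2 fold change of -1.15. Sugct, which encodes a coenzyme A transferase that can act on itaconate, had the largest fall at -2.13 (7.21 ± 1.36 FPKM, SD, n = 3, against 31.7 ± 4.48, SD, n = 6). Sdhb, a subunit of succinate dehydrogenase, the enzyme that itaconate inhibits, had -1.91, and the mitochondrial citrate carrier Slc25a1 had -1.79. The marker genes of hepatocytes were lower in the same mice, by values given with the other cell types.

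Ptgs2 (chr1:150100124-150108012) was 0.355 FPKM in mouse 2, 0.195 in mouse 5 and 0.104 in mouse 9, from 31, 16 and 8 reads. In the control mice it was at the floor except in mouse 7, which had 0.0122 FPKM from 1 read. The reads per unit of relative depth were 101-fold higher after anti-CD40, with an exact 95% interval from 17.4 to 4054 that covers counting error only. Like Nos2, the gene was below the filter, and with no filter limma gave an adjusted p of 0.00172. Ptgs1, the constitutive cyclooxygenase, was called lower instead, with 2.14, 2.59 and 2.55 FPKM against a control median of 5.68 FPKM and a log2 fold change of -1.17 (SE 0.13, adjusted p = 5.31e-05 by limma). The log2 ratio of Ptgs2 to Ptgs1 was higher by 2.62 after anti-CD40 (exact permutation p = 0.0238, adjusted 0.0333). Ptgs2 rose and Ptgs1 fell with no overlap of the groups, so that p-value was fixed by the separate genes and adds no support.

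Ptges (chr2:30889471-30903297), the inducible prostaglandin E synthase, rose. The anti-CD40 mice had 0.891, 0.766 and 0.718 FPKM, from 68, 55 and 48 reads, and the control mice 0.0456, 0.197, 0.140, 0.0340, 0.0461 and 0.01 FPKM, from 32 reads in all. The anti-CD40 mice were close to each other and above all control mice, among which mice 4 and 7 were the highest. The means were 0.791 ± 0.0893 FPKM (SD, n = 3) and 0.0788 ± 0.0729 FPKM (SD, n = 6), and the log2 fold change was 2.40 (SE 0.32, adjusted p = 1.69e-04 by limma). The log2 ratio of Ptges to Ptgs2 differed by 0.95, which did not pass after adjustment (exact permutation p = 0.0476, adjusted 0.0555). The other prostaglandin E synthase genes were not called higher, as Ptges2 had -0.53 (adjusted p = 0.00621 by limma) and Ptges3 had -0.15 (adjusted p = 0.279).

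Of 13 other genes of prostanoid synthesis, 11 were tested, 3 were called higher and 2 (Ptgs1 and Ptges2) lower, with a median log2 fold change of -0.09. Pla2g7, a secreted phospholipase A2 that hydrolyses platelet-activating factor, had 2.50, Pla2g4a, the cytosolic phospholipase A2 that frees arachidonic acid, had 1.49, and the prostacyclin synthase gene Ptgis had 1.18. Pla2g4a was not called without mouse 2, with a log2 fold change of 1.33. Of 5 genes of prostanoid breakdown and transport, 2 were called lower and 0 higher (limma). Hpgd, which inactivates prostaglandin E2 by oxidation, had -2.30 (adjusted p = 0.00356 by limma), and Ptgr2, which acts on the product of that step, had -0.84. The control mice differed widely for Hpgd, with 47.1 and 39.9 FPKM in mice 8 and 12 and 120 to 184 FPKM in the others. The anti-CD40 mice had 16.2 to 26.1 FPKM.

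Of 9 prostanoid receptor genes, 6 were tested, with a median log2 fold change of 0.27. The prostacyclin receptor gene Ptgir and the prostaglandin E2 receptor gene Ptger4 were the 2 called higher. Ptgir had 1.22, 0.858 and 0.938 FPKM after anti-CD40 and 0.112 ± 0.0922 FPKM (SD, n = 6) in the control mice, a log2 fold change of 2.48 (adjusted p = 2.19e-04 by limma). Ptger4 had 2.61, 2.27 and 2.24 FPKM against 0.596 ± 0.199 FPKM (SD, n = 6), a log2 fold change of 1.88 (adjusted p = 1.27e-04 by limma). The thromboxane receptor gene Tbxa2r was the 1 called lower (-0.83, adjusted p = 0.0351 by limma), with groups that overlapped and a call that was lost in 6 of the 9 fits without 1 mouse.

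Ch25h (chr19:34473784-34475135) rose, with 3.07, 3.47 and 1.39 FPKM in the anti-CD40 mice, from about 78, 83 and 31 reads. The control mice had 0.183, 0.338, 0.0841, 0.0512, 0.0923 and 0.01 FPKM, from 17 reads in all. Mouse 9 was the lowest of the anti-CD40 mice and still above mouse 4, the highest control mouse. The means were 2.65 ± 1.10 FPKM (SD, n = 3) and 0.126 ± 0.119 FPKM (SD, n = 6), a ratio of 20.9, and the log2 fold change was 3.65 (SE 0.43, adjusted p = 7.75e-05 by limma).

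The other enzymes that make or break down oxysterols were called lower where they could be tested. Of 8 such genes, 7 were tested and all 7 were called lower and 0 higher (limma), with a median log2 fold change of -1.95. Hsd11b1, a hydroxysteroid dehydrogenase that also reduces an oxysterol, had -2.49, Cyp7a1, the rate-limiting enzyme of bile acid synthesis, had -1.97, and Cyp39a1, an oxysterol hydroxylase, had -1.98. Cyp27a1, the sterol 27-hydroxylase, had -1.95 (28.0 ± 6.06 FPKM, SD, n = 3, against 110 ± 30.6, SD, n = 6). Cyp7b1 and Hsd3b7, which act on 25-hydroxycholesterol and its products, had -1.23 and -1.57, and the groups overlapped for Cyp7b1. Sult2b1, an oxysterol sulfotransferase gene, was under the filter and not tested. The call of Cyp46a1 (-0.97), the gene nearest the filter among them, was lost without mouse 5 (-0.81) and without mouse 9 (-0.94).

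Of 10 genes for oxysterol receptors and their targets, 4 were called higher and 2 lower, with a median log2 fold change of 0.17. Gpr183, the receptor through which oxysterols derived from 25-hydroxycholesterol guide immune cells, had 2.03, 1.44 and 1.86 FPKM after anti-CD40 and 0.151 ± 0.144 FPKM (SD, n = 6) in the control mice, a log2 fold change of 3.07 (SE 0.42, adjusted p = 2.05e-04 by limma). The position of Gpr183 in the table is also that of Gpr18, Ubac2 and 1810041H14Rik. Soat1, which esterifies cholesterol for storage, had 1.68, and the cholesterol exporter genes Abcg1 and Abca1, targets of the liver X receptors, had 1.18 and 0.66. The liver X receptor gene Nr1h3 had -0.73, and Insig1, a target of the sterol-sensing factor SREBP-2, had -2.37, the 2 called lower. Srebf2, which encodes that factor, had 0.34 and was not called (adjusted p = 0.261 by limma).

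**Figure D4:**
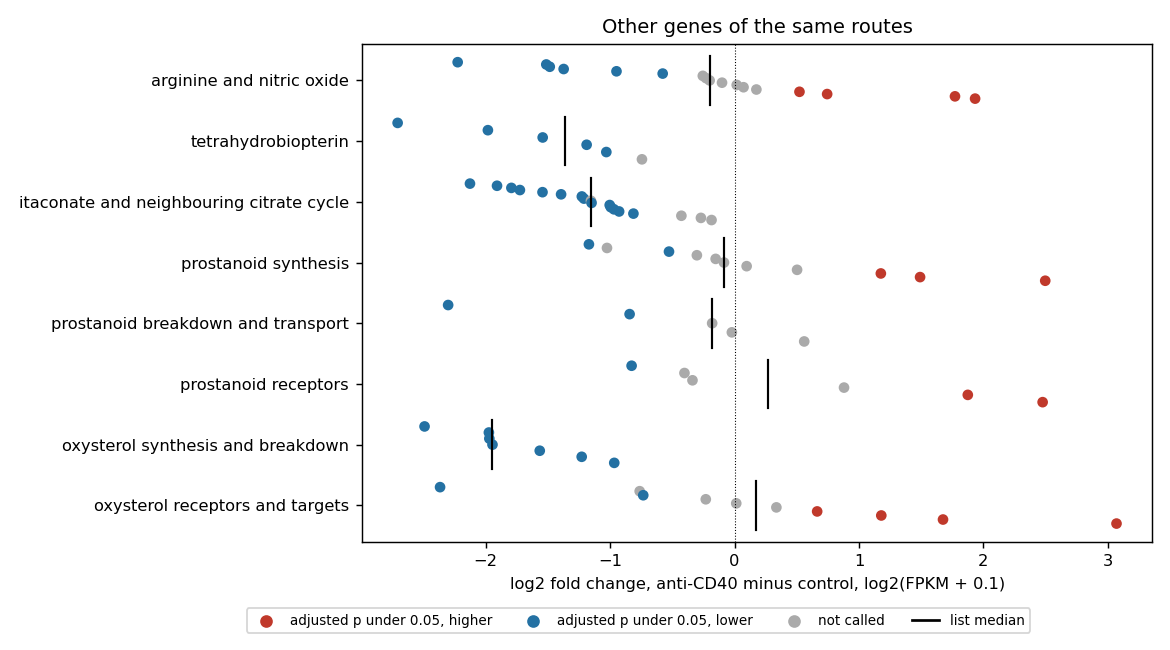
Log2 fold change, anti-CD40 minus control on the log2(FPKM + 0.1) scale (horizontal axis), of the tested genes in 8 lists of the same routes (vertical axis), each point 1 gene, red for called higher, blue for called lower and grey for not called, with the list median as a black line. The tetrahydrobiopterin list, the citrate cycle list and the oxysterol synthesis list have no red point, with medians of -1.37, -1.15 and -1.95.

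Whole liver holds many cell types, and in such samples a lower level can be fewer cells of a type or less RNA per cell, which cannot be told apart. Markers of monocytes and macrophages moved with the rising members. Of 12 such genes, all above the floor, 8 were called higher and 1 lower, their summed level was 351 to 465 FPKM after anti-CD40 and 68.4 to 104 FPKM in the control mice, and their mean log2 level was higher by 2.18. The macrophage genes Adgre1 and Csf1r had lower means (1.75 against 5.36 FPKM and 4.99 against 8.12 FPKM), whereas Ly6c2, a marker of inflammatory monocytes, went from 1.23 to 58.5 FPKM. All 6 markers of Kupffer cells, the resident macrophages of the liver, were called lower, with a summed level of 39.0 to 50.7 FPKM against 285 to 456 FPKM. Of 10 neutrophil markers, 9 were measured, 7 were tested and all 7 were called higher (4214 to 5201 against 18.4 to 156 FPKM summed). All 4 B cell markers were called higher (24.3 to 34.7 against 1.59 to 6.53 FPKM). Cxcr2 and Ngp of the neutrophil list and Cd79a of the B cell list passed the filter only through their anti-CD40 level. The neutrophil markers under the filter, Mpo and Elane, had groups that overlapped, so these counts are no measure of the lists.

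Hepatocyte markers moved with Gch1 and with the pathway genes that fell. Of 8 such genes, 7 were called lower and 0 higher (limma), the summed level was 4662 to 5670 FPKM against 13450 to 24390 FPKM, and the mean log2 level differed by -1.47. Ass1 is also in the arginine list. Of 7 endothelial markers, 2 were called higher and 2 lower, with summed levels of 53.1 to 64.1 and 37.4 to 50.8 FPKM. The part of these cell types in the values of the members was not tested.

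Set against the mean log2 level of the marker list in the same mouse, a comparison chosen after the data were seen and made for members with a control mean of at least 0.1 FPKM, Irg1 rose by 3.97 more than the monocyte and macrophage markers (exact permutation p = 0.0238). Ch25h rose by 1.47 more, with groups that overlapped (exact permutation p = 0.0714). Gch1 differed by 0.12 from the hepatocyte markers (exact permutation p = 0.643), and the anti-CD40 and control mice overlapped on that scale. Within the anti-CD40 group, mouse 2 was the highest and mouse 9 the lowest for Nos2, Irg1, Ptgs2 and Ptges, which was also the order of the summed monocyte and macrophage markers (465, 438 and 351 FPKM in mice 2, 5 and 9). Among the control mice, mouse 4 was the highest for Irg1, Ptges and Ch25h, and for the summed neutrophil and B cell markers (156 and 6.53 FPKM). Its summed monocyte and macrophage markers (94.8 FPKM) were below those of control mice 7 and 12 (104 and 103 FPKM). The summed neutrophil markers of anti-CD40 mice 2, 5 and 9 (5037, 5201 and 4214 FPKM) did not have the order of Irg1.

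The library of anti-CD40 mouse 5 stood apart in pancreatic acinar markers, digestive enzyme genes whose summed level was 876 FPKM there, 27.5 and 32.0 FPKM in mice 2 and 9, and 70.4 to 190.1 FPKM in the control mice. Without mouse 5 the log2 fold changes were 6.16 for Irg1, 3.41 for Ch25h, 2.42 for Ptges, 1.31 for Arg2 and -1.32 for Gch1, and each was called as before. Pearson correlations of log2(FPKM + 0.1) were 0.971 to 0.978 between anti-CD40 mice, 0.953 to 0.980 between control mice and 0.897 to 0.921 between the groups. Genes above the floor numbered 15385 to 15545 after anti-CD40 and 14684 to 15397 in the control mice. The relative depth of the mice, from the value of 1 read, was 0.870 to 1.13, the absolute depth is unknown, and the labels give no batch. Control mice 8 and 12 had the lowest depths (0.870 and 0.920). Their summed FPKM was 994646 and 990638, against 896032 to 918822 in the other control mice. Both were also the lowest control mice for Pts and Hpgd, so those low values are shared between genes. The cause was not tested.

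The genes with the most similar profiles differed from member to member. Likeness was the root mean square distance over the 9 mice between log2(FPKM + 0.1) profiles, each less its control mean, among the 13807 genes tested, so a small distance mostly says that 2 genes had a similar fold change. Nearest to Irg1 were the C-type lectin receptor genes Clec4e (0.39) and Clec4d (0.40) and the monocyte marker Ly6c2 (0.40). Nearest to Ch25h were Apol10b (0.34), the macrophage elastase gene Mmp12 (0.39) and Il12b (0.41), a cytokine subunit. Ptges was nearest to Myof (0.11), Cd247 (0.14) and the pan-leukocyte gene Ptprc (0.18), and Arg2 to Hebp2 (0.18), Ska2 (0.24) and Skil (0.25). Gch1 was nearest to Abcb11 (0.09), the bile salt export pump of hepatocytes, Uqcrb (0.11) and Fam13a (0.11).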

How the data were processed

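RNA from the livers of 9 mice was sequenced from the 3′ end. Reads were mapped to mm10 by the authors with STAR, and FPKM values made with Cufflinks, with a floor of 0.01, were deposited; the annotation and filters are not given in the sources used here. No scaling was added to the deposited FPKM. The 15 genes with a failed estimate, Slc7a2 among them, were left out. A gene with reads on a shared position may take reads of its neighbour.

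Mice were grouped by the labels. limma 3.58.1 in R 4.3.3 (eBayes with trend, 2-sided) was fitted to log2(FPKM + 0.1) over the 13807 genes averaging 0.1 FPKM or more, with Benjamini-Hochberg adjustment over all of them at 0.05. Single genes and ratios used the exact permutation test, and the p-values measure the spread between these mice. Reads were recovered from steps between low values: 77.8% of 4186 low genes gave whole reads in every mouse (within 0.12 of a read or 2%). Irg1 and Ch25h were above the level of those low genes after anti-CD40, so their reads there are approximate. No count test was run, since the read steps were checked on low genes only. The scripts were tested on simulated data. Python 3.11.15, numpy 2.4.6, pandas 2.3.3, scipy 1.17.1 and matplotlib 3.10.9 did the rest.

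The members, lists and tests were chosen with earlier results of these data known. The rule for named genes took all members, the genes of 7 pairs of enzymes, up to 3 called genes in each direction with the largest change in each list (more where a count of 5 or fewer was given), and the 3 nearest profiles. Ddah1, Spr, Pcbd2, Pts, Nos3, Ptges3, Srebf2, Cyp27a1, Cyp7b1, Hsd3b7, Cyp46a1, Vti1b, Adgre1, Csf1r, Cxcr2, Ngp, Mpo, Elane, Cd79a, and Sult2b1 as the untested gene of its list, were added after their values were seen. Alternatives were pseudocounts of 1 and 0.01, no filter, a mean of at least 1 FPKM, quantile and median of ratios scaling, the Saa genes left out, eBayes without trend or robust, each mouse left out, and, chosen after seeing the data, members relative to marker lists. The neutrophil marker Ly6g was not analysed here, and some genes of the lists are not reported here.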

Additional observations from a re-analysis of the deposited data

Results flagged for a closer look

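In 5 of 61 groups of control values examined, the highest or lowest control mouse stood apart from the other 5 by Dixon's test at 95%, where chance gives about 1 in 20, or 3.05. For Ptgs2 the gap was 1.0 of the range, since control mouse 7 had 1 read and the others were at the floor. Mouse 4 was the highest control mouse for the arginine transporter gene Slc7a1 (gap 0.729) and for Ptgr2 (0.687), and the lowest for Cyp7b1 (0.653). Mouse 12 was the highest for Soat1 (0.669).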

How the results depend on the processing

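Under every alternative run on the deposited levels, each of Irg1, Ptges, Ch25h, Gch1 and Arg2 kept its direction and its call, except that a mean of at least 1 FPKM left Irg1 as the 1 member called higher and took Ptges, Ch25h and Arg2 out of the test. That filter also left 8 other pathway genes called higher in place of 13, through the genes it removed, and with no filter 6 members were called higher. Other pathway genes called lower numbered 35 to 42 under the alternatives. Several smaller calls were lost under at least 1 alternative, those of Sms, Tbxa2r, Cyp46a1, Abca1, Ptges2, Pla2g4a and Vti1b, and Pts was called without control mouse 8 or 12. With the Saa genes left out Arg1 was at 0.17, and with quantile normalization Arg1 was at 0.28. Relative to the marker lists, Gch1 had the opposite sign and lost its call (0.12, exact permutation p = 0.643), Ch25h lost its call (1.47, exact permutation p = 0.0714) and Irg1 kept its own. The change in the Nos2 to Arg2 ratio was 0.51 with a pseudocount of 0.01 and ran from -0.50 to 0.10 when each mouse was left out, the highest without mouse 9. The Nos2 to Arg1 ratio was at 0.37 and not past the threshold with a pseudocount of 1, and the Ptges to Ptgs2 ratio at 0.26 with 0.01. Leaving out each mouse gave 0.73 to 1.17 for Ptges to Ptgs2, which passed the unadjusted threshold in the full data and lost it without control mouse 3, 7, 8, 11 or 12, 2.22 to 2.60 for Nos2 to Gch1 and 2.24 to 2.94 for Ptgs2 to Ptgs1. The cause was not tested in any of these. No paired analysis was possible because the mouse numbers are not shared between the groups. Depth limits Nos2 and Ptgs2, which rest on 11 and 55 reads in the anti-CD40 mice.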
